A study of Mus musculus with 22 samples.

Results

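The sterol and fatty acid synthesis genes are a named set of 41 mouse genes, and their messenger RNA levels are described here across sorted cells of the mouse retina. The set holds 18 enzymes of sterol synthesis, 5 regulators of the SREBP pathway, 8 enzymes that make or desaturate fatty acids, 8 enzymes that elongate them and 2 acyltransferases that place them in phospholipids. Members were found by symbol in a deposited table of 13812 genes. A row was present for 40 of the 41. The level of Idi1 was not analysed here, and only its promoter window is counted below. The study sorted rods, cones and bipolars, the interneurons that receive signals from both photoreceptor types, at P7, P13 and P30 (ages in days after birth). It also sorted rod bipolars and cone bipolars, which contact rods and cones in turn, at P13. That makes 11 groups of 2 libraries each. The labels give tissue, cell type and age, and state no genotype, strain or treatment. The series design names the bipolars as ON-bipolars.

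Cholesterol is built from acetyl units through mevalonate, squalene and lanosterol, and the SREBP transcription factors switch on the enzymes of that path when the endoplasmic reticulum runs short of sterol. Fatty acids are assembled on fatty acid synthase, given double bonds by desaturases and lengthened by elongases of the ELOVL family. Photoreceptor outer segments are renewed throughout life and are rich in phospholipids that carry very long polyunsaturated chains, and ELOVL4 makes the longest of them.

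Levels are given as CPM, the read count of a gene scaled to library size, on the scale of the deposited values, with replicate 1 named before replicate 2. Differences are log2 fold changes ± SE from limma, a linear model fitted to 13405 genes with all 22 libraries, with 2 libraries per group. To be called, a gene needed an adjusted p (Benjamini-Hochberg, over those genes) under 0.05 and an absolute log2 fold change of 1 or more. All 40 members with a row passed the filter on low values and were tested. Of these, 28 were called in at least 1 of 15 comparisons, and 12 were called in none (Fdft1, Fdps, Pmvk, Mvk, Mvd, Lss, Nsdhl, Sc5d, Insig2, Elovl1, Hacd3 and Tecr). A call that is lost is one that no longer met both thresholds. Whether paired libraries of a group stem from different animals is not in the labels, and p-values therefore measure a spread that may be technical. The fit takes a shared spread per gene from all 11 groups. The median SD of log2 CPM between a group's 2 libraries ran from 0.13 (bipolars at P7) to 0.49 (rods at P13). Limma p-values that involve rods at P13 may thus be too small. In sorted populations such as these, fewer cells of a type and less RNA per cell cannot be told apart.

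Depth ran from 14.4 to 54.4 Mreads (megareads) per library. Marker genes went with the labels: summed over 6 genes, rod markers lay at 14462 to 24921 CPM in rods and at 116 to 246 CPM in bipolars, and cone markers at 15501 to 47019 CPM in cones and 23.5 to 322 CPM in rods. Summed over 7 genes, bipolar markers lay at 3512 to 5344 CPM in bipolars and at 226 to 466 CPM in rods and cones. They lay at 17990 and 18419 CPM in rod bipolars and at 4521 and 4329 CPM in cone bipolars. Rod markers lay at 569 and 319 CPM in rod bipolars and at 565 and 330 CPM in cone bipolars. With Sag included, rod markers stood in cones at 22.4% to 40.9% of their level in rods, and each of the other 5 at 1.15% to 5.38%. Each of the 5 cone markers other than Gngt2 stood in rods at 0.00049% to 0.529% of their level in cones. Müller glia are the support cells of the retina, and their 10 markers summed to 237 and 219 CPM in bipolars at P7, 829 and 1031 CPM at P13 and 4974 and 7822 CPM at P30, against 176 to 891 CPM in rods and cones. Amacrine markers summed in bipolars to 185 and 279 CPM at P7, 123 and 397 CPM at P13 and 481 and 656 CPM at P30, against at most 74.8 CPM in rods and cones. Horizontal cell markers summed to 136 and 175 CPM in bipolars at P7, against at most 29.1 CPM in rods and cones. The part of these cells in the results for bipolars was not tested. In bipolars at P30 the summed levels of microglial markers (177 and 384 CPM) and vascular markers (359.5 and 464 CPM) were also above those of each rod and cone library. Mitochondrially encoded genes took 2.18% to 38.7% of reads, with the most in cones at P30.

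Rods and cones were compared first, at each age. Among the members, the elongases Elovl5 and Elovl6 separated the 2 photoreceptor types most widely. Both were abundant in cones, while in rods Elovl5 was nearly absent and Elovl6 was low. Elovl2 was higher in cones from P13, and Elovl4 was higher in rods at P7 and P13. Agpat3, an acyltransferase of phospholipid synthesis, was higher in rods at all 3 ages. Most sterol enzymes, like most of all genes tested, were not called. Of the 40 members, 2 were higher in rods (5% of members, 3.30% of all genes tested) and 6 lower (15%, against 9.52%) at P7. At P13, 3 were higher (7.5%, against 7.10%) and 11 lower (27.5%, against 14.1%). At P30, 3 were higher (7.5%, against 9.98%) and 8 lower (20%, against 10%). With libraries scaled by their plain read totals, the P30 split was 8 higher and 6 lower. Over all genes 3090 of 3923 calls were then higher, against 1338 of 2684 as deposited. The median log2 difference of the members was -0.18 at P7, -0.64 at P13 and -0.25 at P30, beside -0.16, -0.11 and 0.14 over all genes. In a fit of the compared groups alone, limma called 6 of the 8 at P7, 1 of the 14 at P13 (Elovl6) and 6 of the 11 at P30. Over all 13405 genes that fit called 1420, 491 and 863, against 1718, 2843 and 2684 with all libraries. The P7 calls lost there were Elovl4 (limma adjusted p = 0.06) and Hsd17b7 (0.11), and the P30 calls Dhcr7, Srebf1, Srebf2, Hsd17b12 and Fads2 (0.07 to 0.35).

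Elovl5 (chromosome 9, 77917364 to 77984519, plus strand, 1-based on GRCm38 as are all positions here) elongates polyunsaturated fatty acids of intermediate length. In cones it had 241 and 285 CPM at P7, 197 and 257 CPM at P13 and 205 and 164 CPM at P30. In rods it had 0 and 0.0219 CPM at P7, 0.105 and 0 CPM at P13 and 1.18 and 1.93 CPM at P30. Every rod library thus lay far below every cone library. The rods held 1 read at P7 and 3 reads at P13 over both libraries, so the differences at those ages are given as ratios of reads with 95% counting intervals. Cones exceeded rods 25129-fold at P7 (4510 to 992568), 5135-fold at P13 (1757 to 24901) and 114-fold at P30 (97.2 to 134). The limma adjusted p was 6.6e-08, 1.1e-07 and 5.7e-05 at the 3 ages. The reads of amplified RNA are not independent molecules, so these intervals cover counting error alone. In rods at P30 Elovl5 stood at 0.878% of its level in cones, where the cone markers other than Gngt2 stood at 0.2% to 0.286%; their part in the P30 level was not tested. Bipolars lay between, with 76.4 and 78.4 CPM at P7, 48.1 and 39.5 CPM at P13, and 61.6 and 141 CPM at P30.

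Elovl4 (chromosome 9, 83778692 to 83806277, minus strand), the elongase of very long chains, had the opposite order. Rods had 1121 and 899 CPM at P7, 1504 and 1349 CPM at P13 and 977 and 1305 CPM at P30. Cones had 440.1 and 515 CPM at P7, 644 and 547 CPM at P13, and 597 and 563 CPM at P30, so the 2 types did not overlap at any age. The log2 difference was 1.08 ± 0.18 at P7 (limma adjusted p = 0.00082) and 1.26 ± 0.18 at P13 (limma adjusted p = 0.00013). At P30 it was 0.96 ± 0.18, under the fold threshold. The P7 difference fell below the fold threshold without rods P7 replicate 1 (0.92) or cones P7 replicate 1 (0.96).

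The sequences before the starts of Elovl5 and Elovl4, both on chromosome 9, are shown because these elongases differed in opposite directions between rods and cones. Each run covers the bases from 250 to 11 before the RefSeq start on GRCm38.p6, written 5′ to 3′ on the gene's strand, and capitals mark the box CCAAT or its reverse complement ATTGG.
Elovl5, chr9:77917115-77917354, plus strand: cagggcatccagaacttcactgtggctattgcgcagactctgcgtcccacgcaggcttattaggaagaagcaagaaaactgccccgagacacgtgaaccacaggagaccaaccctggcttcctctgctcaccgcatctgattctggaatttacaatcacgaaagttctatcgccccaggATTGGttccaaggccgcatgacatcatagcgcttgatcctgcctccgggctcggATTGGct
Elovl4, chr9:83806316-83806555, minus strand: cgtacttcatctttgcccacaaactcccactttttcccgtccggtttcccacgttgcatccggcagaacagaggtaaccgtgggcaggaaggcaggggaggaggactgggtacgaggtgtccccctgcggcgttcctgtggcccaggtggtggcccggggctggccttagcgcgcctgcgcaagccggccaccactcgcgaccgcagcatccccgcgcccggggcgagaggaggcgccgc
The Elovl5 window held 2 boxes, both as ATTGG, starting 71 and 17 bases before the start, and the Elovl4 window held 0. In the full 250 bases G and C made up 55.6% for Elovl5 and 69.6% for Elovl4, beside a median of 52.4% over 32851 windows of all genes. These are matches of letters and were not tested against the levels.

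Elovl6 (chromosome 3, 129532355 to 129638495, plus strand) elongates the saturated chains made by fatty acid synthase. Cones had 341 and 430.0 CPM at P7, 249 and 486 CPM at P13, and 295 and 425 CPM at P30. Rods had 1.34 and 5.11 CPM at P7, 11.7 and 10.5 CPM at P13, and 5.73 and 3.61 CPM at P30, so the lowest cone library was above the highest rod library at each age. The log2 difference, rods minus cones, was -7.19 ± 0.47 (limma adjusted p = 6.6e-08), -4.97 ± 0.47 (limma adjusted p = 2.1e-06) and -6.28 ± 0.47 (limma adjusted p = 1.7e-07). These calls held under each alternative that was run.

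Elovl2 (chromosome 13, 41182381 to 41220405, minus strand), which lengthens polyunsaturated chains towards docosahexaenoic acid precursors, was called between the types at P13 and P30. Cones held 347 and 517 CPM at P7, 446 and 385 CPM at P13, and 424 and 460.1 CPM at P30. Rods held 277 and 294 CPM at P7, 146 and 94.9 CPM at P13, and 65.4 and 84.1 CPM at P30. The difference was -0.57 ± 0.29 at P7, which was not called, -1.82 ± 0.29 at P13 (limma adjusted p = 0.00037) and -2.58 ± 0.29 at P30 (limma adjusted p = 1.4e-05). An interaction test of how rods and cones differ in their change over P7 to P30 gave -2.01 ± 0.42 (limma adjusted p = 0.0072). That interaction was called under each alternative.

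Hsd17b12, the reductase of the second step of each elongation cycle, was higher in cones at each age, with log2 differences, rods minus cones, of -1.25 ± 0.29, -1.33 ± 0.29 and -2.04 ± 0.29 (limma adjusted p = 0.0072, 0.0032 and 9.5e-05). Its levels were 36.9 and 75.04 CPM in rods and 196 and 239 CPM in cones at P30. The P7 call was lost without rods P7 replicate 2 (limma adjusted p = 0.067) or cones P7 replicate 2 (limma adjusted p = 0.058). The other enzymes of the cycle, Hacd3 and Tecr, and Elovl1 were called at no age. Hacd3 ran from 180 to 353 CPM in rods and from 220 to 389 CPM in cones. Of the 8 elongation members, 1 was higher in rods and 3 lower at P7, 1 higher and 4 lower at P13, and 0 higher and 4 lower at P30, and their medians were -0.32, -0.99 and -1.49. Over all genes the shares higher and lower were 3.30% and 9.52%, 7.10% and 14.1%, and 9.98% and 10%, with the medians given above. Summed over the 8 genes, the levels were 1381 to 2035 CPM in rods, 1975 to 2432 CPM in cones and 837 to 1118 CPM in bipolars.

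**Figure D1:**
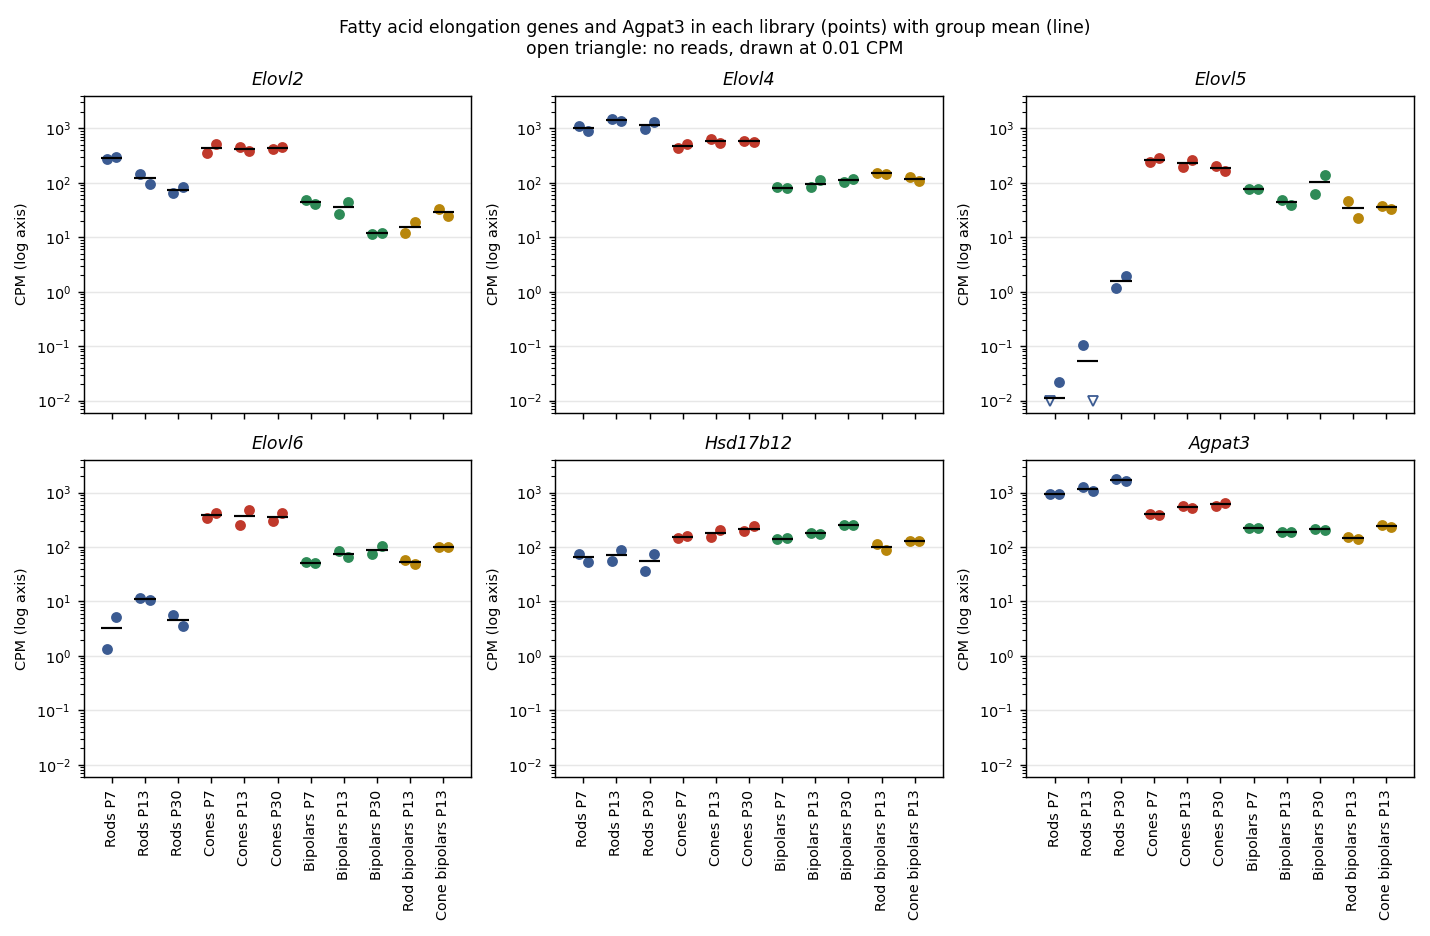
Levels of 5 elongation genes and Agpat3 in CPM on a log axis, with 1 point per library and a line at the group mean for the 11 groups; an open triangle is a library with no reads, drawn at 0.01 CPM. Elovl5 and Elovl6 lie in cones far above rods, and Elovl4 and Agpat3 lie in rods above cones and bipolars.

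Among the enzymes that make and desaturate fatty acids, none of the 8 was called higher in rods at any age, and 2, 3 and 2 were called lower at P7, P13 and P30 (9.52%, 14.1% and 10% of all genes). The medians were -0.82, -1.31 and -1.01. Acaca, the acetyl-CoA carboxylase that commits acetyl units to fatty acids, lay above cones in every rod library of each age, with 113 and 93.5 CPM against 59.3 and 54.2 CPM at P7, and its differences of 0.86 ± 0.21, 0.50 ± 0.21 and 0.33 ± 0.21 were under the fold threshold. Acly makes the cytosolic acetyl-CoA that feeds both pathways. It had 287 and 282 CPM at P7, 368 and 325 CPM at P13, and 221 and 241 CPM at P30 in rods. In cones it had 563 and 692 CPM at P7, 673 and 557 CPM at P13, and 739 and 695 CPM at P30, with each cone library above each rod library of its age. The difference was -1.13 ± 0.17 at P7 (limma adjusted p = 0.00023), -0.82 ± 0.17 at P13, under the fold threshold, and -1.63 ± 0.17 at P30 (limma adjusted p = 4.3e-06). Without cones P7 replicate 2 the P7 difference was -0.98. Fads1, the delta-5 desaturase of polyunsaturated synthesis, was lower in rods at P13, with 5.24 and 12.7 CPM against 71.6 and 37.5 CPM in cones (-2.67 ± 0.41, limma adjusted p = 0.00022). At P30 rods held 15.1 and 11.8 CPM and cones 8.37 and 16.01 CPM, and the groups overlapped.

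Fads6, a desaturase-related gene, was sparse in photoreceptors, with 0.0401 and 0.0438 CPM in rods and 2.48 and 1.33 CPM in cones at P7. Its call at P7 (limma adjusted p = 0.0044) was lost without cones P7 replicate 1 (limma adjusted p = 0.053) and on log2(CPM + 1). Its call at P13 (limma adjusted p = 0.045) was lost without rods P13 replicate 2, cones P13 replicate 1 or cones P13 replicate 2 (limma adjusted p = 0.28, 0.08 and 0.19). With the replicate number as a block it was also lost (limma adjusted p = 0.0501). Scd2, a stearoyl-CoA desaturase, had 74.8 and 18.7 CPM in rods and 94.4 and 133 CPM in cones at P13 (-1.58 ± 0.44, limma adjusted p = 0.016). Without rods P13 replicate 2 that difference was -0.58 and was not called, nor was it without cones P13 replicate 2 (-1.33, limma adjusted p = 0.12). Fads2, the delta-6 desaturase, held 0.905 and 0.0186 CPM in rods and 3.44 and 2.09 CPM in cones at P30, and its call rested on a rod library with 1 read (without it -1.56, limma adjusted p = 0.38). That call was also lost without cones P30 replicate 1 (limma adjusted p = 0.13) or replicate 2 (limma adjusted p = 0.055).

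The SREBP regulators control the transcription of both pathways: Scap escorts the SREBPs out of the endoplasmic reticulum, Insig1 and Insig2 hold them there, Srebf2 favours sterol genes and Srebf1 fatty acid genes. None of the 5 was called between rods and cones at P7, where 3.30% of all genes were higher and 9.52% lower. Scap had 276 and 249.5 CPM at P7, 187 and 245 CPM at P13, and 163 and 139 CPM at P30 in rods. Cones had 388 and 433 CPM at P7, 383 and 356 CPM at P13, and 324 and 340.0 CPM at P30, with no overlap at any age. Its difference was -0.64 ± 0.15, -0.79 ± 0.15 and -1.14 ± 0.15, and it was called at P30 (limma adjusted p = 6.5e-05). That call was lost with plain read totals. Srebf1 was higher in rods at P30, with 34.5 and 41.4 CPM against 12.8 and 20.2 CPM (1.24 ± 0.27, limma adjusted p = 0.0036), and fell under the fold threshold without cones P30 replicate 1 (0.91).

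Srebf2 was called lower in rods at P13 and P30, with differences of -1.99 ± 0.56 (limma adjusted p = 0.016) and -1.62 ± 0.56 (limma adjusted p = 0.044). Its levels were 24.4 and 4.40 CPM in rods and 33.04 and 50.98 CPM in cones at P13, and 12.4 and 9.57 CPM and 35.2 and 31.8 CPM at P30. The P13 call was lost without rods P13 replicate 2 (-0.75, limma adjusted p = 0.22) or cones P13 replicate 2 (limma adjusted p = 0.12). The P30 call was lost without any single library of the 4, with a limma adjusted p of 0.1, 0.18, 0.14 and 0.091, and with plain read totals. Insig1 was called lower in rods at P13 (-2.80 ± 0.97, limma adjusted p = 0.045), where rods held 10.4 and 0.478 CPM and cones 17.3 and 14.2 CPM. Without rods P13 replicate 2 the Insig1 difference was -0.58 (limma adjusted p = 0.59). It was also lost without cones P13 replicate 1 (limma adjusted p = 0.15) or replicate 2 (limma adjusted p = 0.12).

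The sterol enzymes had overlapping summed levels in the photoreceptor types, with 659 to 859 CPM in rods and 650 to 810 CPM in cones over 17 genes. Between rods and cones, 0 were higher and 1 lower at P7, 1 higher and 2 lower at P13, and 1 higher and 0 lower at P30, with medians of 0.00, -0.41 and 0.28. Over all genes 3.30%, 7.10% and 9.98% were higher and 9.52%, 14.1% and 10% lower, with medians of -0.16, -0.11 and 0.14. Hmgcs1 (chromosome 13, 119690379 to 119708260, plus strand), which makes the precursor of mevalonate, had 111 and 115 CPM at P7, 113 and 79.04 CPM at P13, and 84.1 and 101 CPM at P30 in rods. In cones it had 96.02 and 141 CPM at P7, 113 and 139.8 CPM at P13, and 77.3 and 86.8 CPM at P30, and the ranges of the 2 types overlapped at P7 and P30. Sqle, which makes squalene epoxide, was also called at no age, with 64.6 and 59.6 CPM in rods and 56.5 and 67.99 CPM in cones at P7.

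A part of the region before the Hmgcs1 start is shown because it was the sole member window with a match to TCACNCCAC. This is a spelling of the sterol regulatory element that SREBPs bind. Other forms of SREBP sites were not searched, so windows without a match may hold them. It is given 5′ to 3′ on the gene's strand from GRCm38.p6, with the element in capitals.
Hmgcs1, chr13:119690193-119690242, plus strand: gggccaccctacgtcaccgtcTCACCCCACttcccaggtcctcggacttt
The element started 137 bases before the RefSeq start. It was searched on both strands in the 250 bases before the start, for which 35 members had a window, and 1.22% of 27025 genes with a window held it. CCAAT, the box bound by NF-Y, does not overlap those letters and was searched the same way. It was held by 24 of the 35 members (68.6%), beside 37.5% of the 27025 genes with a window, tested here or not. These shares are a description of letters in a fixed window. No window was at hand for Fdps, Fdft1, Sqle, Scd1, Scd2 and Fads1.

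Dhcr7, the reductase that makes cholesterol from its direct precursor, was the sterol enzyme that was higher in rods. It had 53.8 and 55.3 CPM in rods and 10.3 and 20.3 CPM in cones at P30 (1.91 ± 0.37, limma adjusted p = 0.0015), with no overlap. At P13 it had 64.5 and 151 CPM and 36.5 and 49.6 CPM (1.21 ± 0.37, limma adjusted p = 0.025), and the call was lost without rods P13 replicate 2 (0.60, limma adjusted p = 0.3) or cones P13 replicate 1 (0.99). Tm7sf2, a sterol C14 reductase, was lower in rods at P13, with 1.12 and 5.71 CPM against 23.1 and 11.7 CPM (-2.69 ± 0.59, limma adjusted p = 0.0037). Cyp51, the lanosterol demethylase, was lower in rods at P13, with 51.8 and 55.9 CPM against 113 and 112 CPM (-1.06 ± 0.28, limma adjusted p = 0.011). That call was lost without cones P13 replicate 1 (limma adjusted p = 0.0504) or replicate 2 (limma adjusted p = 0.055). Hsd17b7, a sterol keto-reductase, was lower in rods at P7, with 7.58 and 4.58 CPM against 16.3 and 21.5 CPM (-1.67 ± 0.46, limma adjusted p = 0.023). Its call was lost without rods P7 replicate 2, cones P7 replicate 1 or cones P7 replicate 2 (limma adjusted p = 0.14, 0.07 and 0.15). The other 13 sterol enzymes were not called between rods and cones.

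Agpat3 (chromosome 10, 78269178 to 78352489, minus strand), which acylates lysophosphatidic acid with polyunsaturated chains, had 936 and 960.2 CPM at P7, 1279.6 and 1077 CPM at P13 and 1801 and 1637 CPM at P30 in rods. Cones held 411 and 396 CPM at P7, 568 and 510.4 CPM at P13, and 572 and 639.7 CPM at P30, with no overlap at any age. The difference was 1.23 ± 0.13 (limma adjusted p = 9.1e-06), 1.12 ± 0.13 (limma adjusted p = 1.6e-05) and 1.50 ± 0.13 (limma adjusted p = 8.2e-07). At P13 it was just under the fold threshold without rods P13 replicate 1 (1.00). Lpcat1, an acyltransferase of phosphatidylcholine remodelling, had 331 and 329 CPM in rods and 231 and 218 CPM in cones at P7, and its difference of 0.56 ± 0.20 was under the fold threshold.

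**Figure D2:**
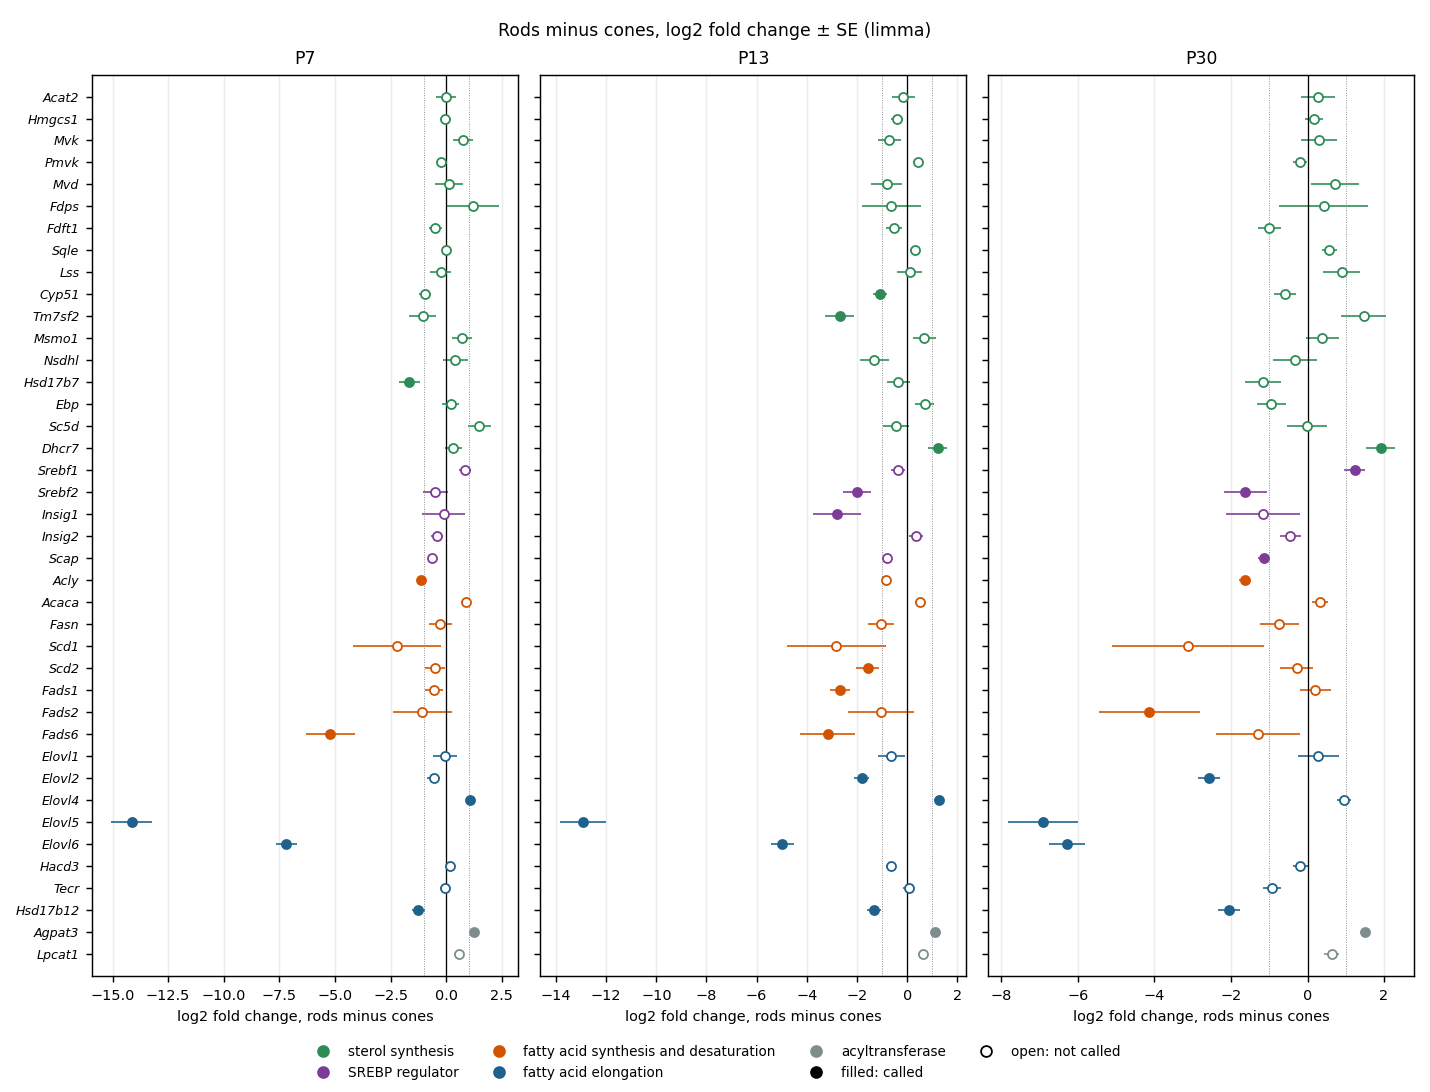
Log2 fold change of each of 40 members, rods minus cones, with SE bars from limma, at P7, P13 and P30; filled points are called, colours give the role and dotted lines mark a log2 fold change of 1 in either direction. The axes differ between ages; the fitted Elovl5 values at P7 and P13 rest on 1 and 3 reads in rods and depend on the floor of the log scale.

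The next comparison, at each age, set bipolars against the mean over both photoreceptor types. These comparisons use the same rod and cone libraries as those above. In bipolars the desaturases Scd2 and Fads1 were higher at all 3 ages, while Elovl2, Elovl4, Agpat3 and Scap were lower at all 3. Of the 40 members, 5 were higher (12.5% of members, 11.6% of all genes) and 7 lower (17.5%, against 11.1%) at P7. At P13, 8 were higher (20%, against 20.6%) and 6 lower (15%, against 12.8%), and the split was 12 higher and 4 lower with plain read totals. Those totals made 3833 of 4878 calls over all genes higher, against 2757 of 4474 as deposited. At P30, 10 were higher (25%, against 22.6%) and 5 lower (12.5%, against 13%). The members' medians were -0.09, -0.28 and 0.31, beside 0.12, 0.18 and 0.13 over all genes. In a fit of the compared groups alone, 7 of the 14 calls at P13 were lost: Elovl5, Fasn, Acat2, Ebp, Msmo1, Tm7sf2 and Srebf2 (limma adjusted p = 0.051 to 0.21). At P30 the call of Fasn was lost (limma adjusted p = 0.11). A share near that of all genes is no result about the set as a whole, and the values that follow are those of single members.

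Scd2 (chromosome 19, 44293674 to 44306864, plus strand) puts the first double bond into saturated fatty acids. Bipolars had 1084 and 1281 CPM at P7, 448 and 580.5 CPM at P13 and 559 and 654 CPM at P30. Rods had 139 and 79.2 CPM at P7, 74.8 and 18.7 CPM at P13, and 91.5 and 75.5 CPM at P30. Cones had 161 and 136 CPM at P7, 94.4 and 133 CPM at P13, and 83.2 and 123 CPM at P30, so every bipolar library was above every photoreceptor library. The difference was 3.24 ± 0.38 (limma adjusted p = 1.1e-05), 2.98 ± 0.38 (limma adjusted p = 2e-05) and 2.72 ± 0.38 (limma adjusted p = 4.6e-05), and the calls held under each alternative. Rod bipolars (338 and 349.6 CPM) and cone bipolars (349 and 348 CPM) at P13 also lay above the photoreceptors. Scd1, a close paralog of Scd2 and also on chromosome 19, was sparse. Bipolars had 0.465 and 0.622 CPM at P7, 2.18 and 2.86 CPM at P13, and 4.65 and 6.18 CPM at P30. Photoreceptors had 0 to 0.382 CPM. Rods at P7 held 0 reads of Scd1, so bipolars (21 reads) were at least 17.1-fold higher, taking a floor of 3 reads over both rod libraries. The 95% counting interval of that ratio starts at 12.7. Against rods the ratio was 86.0 at P13 (95% counting interval 23.2 to 719, on 2 rod reads) and 523 at P30 (93.2 to 20727, on 1 rod read). Against cones it was smaller, at 19.5 at P7 (5.82 to 102), 12.2 at P13 (7.27 to 21.8) and 28.6 at P30 (15.8 to 57.9). The call at P7 was lost without any 1 of the 6 libraries, with a limma adjusted p of 0.055 to 0.18, and on log2(CPM + 1). At P13 it was lost without cones replicate 1 (limma adjusted p = 0.052), bipolars replicate 1 (0.077) or bipolars replicate 2 (0.11). How the authors' counting shared reads between Scd1 and Scd2 is not given in the sources used here, so the small Scd1 levels are uncertain.

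Fads1 had 132 and 139 CPM at P7, 91.8 and 90.2 CPM at P13, and 69.2 and 78.03 CPM at P30 in bipolars, against 5.24 to 71.6 CPM in photoreceptors. The difference was 1.46 ± 0.35, 2.15 ± 0.35 and 2.56 ± 0.35, and the limma adjusted p 0.0056, 0.0002 and 3.7e-05. The P7 call was lost without bipolars P7 replicate 2 (limma adjusted p = 0.057). Fasn, fatty acid synthase itself, was higher in bipolars at P13, with 61.97 and 71.4 CPM against 22.5 and 6.26 CPM in rods and 22.8 and 26.05 CPM in cones (1.97 ± 0.45, limma adjusted p = 0.0027). At P30 the same comparison was called (1.24 ± 0.45, limma adjusted p = 0.036), but bipolars (39.9 and 24.2 CPM) overlapped cones (28.2 and 10.2 CPM). That P30 call was lost without either rod library, cones replicate 2 or either bipolar library (limma adjusted p = 0.057 to 0.27). Acaca was lower in bipolars at P30, with 28.97 and 23.98 CPM against 82.9 and 88.2 CPM in rods and 73.03 and 63.7 CPM in cones (-1.53 ± 0.18, limma adjusted p = 7.4e-06). Fads6 was higher at P30 with 17.8 and 17.1 CPM (2.98 ± 0.95, limma adjusted p = 0.019). Its call was lost without cones replicate 1 (limma adjusted p = 0.052) or bipolars replicate 1 or 2 (limma adjusted p = 0.094 and 0.1). Of the 8 genes of this role, 3, 4 and 5 were higher in bipolars at P7, P13 and P30, and 0, 0 and 1 lower, with medians of 0.56, 2.06 and 1.90. Over all genes 11.6%, 20.6% and 22.6% were higher and 11.1%, 12.8% and 13% lower, with medians of 0.12, 0.18 and 0.13.

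Elovl4 was lower in bipolars at each age, with differences from the photoreceptor mean of -3.09 ± 0.16, -3.27 ± 0.16 and -2.87 ± 0.16 (limma adjusted p = 1.2e-09, 5.2e-10 and 3e-09). Its bipolar levels were 83.1 and 79.7 CPM at P7, 82.4 and 111 CPM at P13, and 104 and 118 CPM at P30, all under the lowest cone library. Elovl2 was lower too, with differences of -2.98 ± 0.26, -2.69 ± 0.26 and -3.93 ± 0.26 (limma adjusted p = 3.5e-07, 8.7e-07 and 1.6e-08), with 47.7 and 40.8 CPM at P7, 26.6 and 44.02 CPM at P13, and 11.6 and 12.1 CPM at P30 in bipolars. The Agpat3 differences were -1.48 ± 0.11, -2.07 ± 0.11 and -2.27 ± 0.11 (limma adjusted p = 9.1e-08, 1.8e-09 and 1e-09), with 221 and 221 CPM at P7, 187 and 191 CPM at P13, and 217 and 206 CPM at P30. The calls of these 3 genes held at each age under each alternative. Lpcat1 was lower at P7 (-1.33 ± 0.17, limma adjusted p = 2.4e-05), with 103 and 113 CPM. Rod markers other than Sag stood in bipolars at 0.0946% to 11.5% of their level in rods, and their part in the Elovl4 and Agpat3 levels of bipolars was not tested.

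Elovl5 was called higher in bipolars than the photoreceptor mean at each age, but its level there lay between those of rods and cones. At P30 that call was lost without bipolars replicate 2 (limma adjusted p = 0.2), the bipolar library with 141 CPM. Elovl6 had 52.9 and 50.1 CPM at P7, 85.6 and 64.8 CPM at P13, and 74.97 and 105 CPM at P30 in bipolars and likewise lay between. Its P30 call (1.14 ± 0.40, limma adjusted p = 0.032) was lost without rods replicate 2, cones replicate 1 or either bipolar library (limma adjusted p = 0.06 to 0.23). Hsd17b12 was higher in bipolars than the photoreceptor mean at P30 (1.26 ± 0.25, limma adjusted p = 0.00084). Bipolars held 254 and 257 CPM, far above rods (36.9 and 75.04 CPM) and close to cones (196 and 239 CPM), and the gap to cones was not tested on its own. The Müller glia markers given above were at their highest in these same P30 bipolar libraries, and their part in the P30 results for bipolars was not tested.

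Of the 5 SREBP regulators, Scap was lower in bipolars at each age, with differences of -1.69 ± 0.13, -1.48 ± 0.13 and -1.10 ± 0.13 (limma adjusted p = 1.4e-07, 4.9e-07 and 1.1e-05). Bipolars had 97.4 and 106 CPM at P7, 99.2 and 102 CPM at P13, and 103 and 105 CPM at P30, below the lowest photoreceptor library of each age. With plain read totals the P30 call was lost. Srebf2 was higher in bipolars at P30, with 96.3 and 83.5 CPM against 12.4 and 9.57 CPM in rods and 35.2 and 31.8 CPM in cones (2.23 ± 0.48, limma adjusted p = 0.0016). Its P13 call (1.41 ± 0.48, limma adjusted p = 0.029) was lost without rods replicate 2, cones replicate 1, bipolars replicate 1 or bipolars replicate 2 (limma adjusted p = 0.051 to 0.23). Insig1, itself a target of the SREBPs, was higher at P30, with 25.5 and 35.3 CPM (2.66 ± 0.84, limma adjusted p = 0.018), and lost its call without rods replicate 2 (limma adjusted p = 0.051) or bipolars replicate 1 (0.063) or 2 (0.13). Srebf1 and Insig2 were not called at any age.

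Sterol enzymes summed to 505 and 528 CPM in bipolars at P7, 544 and 552 CPM at P13 and 662 and 669 CPM at P30. The P7 and P13 sums lay below every rod and cone library, and the P30 sums within the photoreceptor range. Acat2, which joins acetyl units at the head of the path, was higher in bipolars at P7 and P13, with 38.2 and 40.9 CPM and then 25.7 and 24.5 CPM against 5.81 to 17.7 CPM in photoreceptors of those ages. The difference was 1.42 ± 0.39 (limma adjusted p = 0.012) and 1.68 ± 0.39 (limma adjusted p = 0.0031). The P7 call was lost without bipolars replicate 1 (limma adjusted p = 0.079) or 2 (limma adjusted p = 0.1). Msmo1, the sterol C4 methyl oxidase, was lower at P7 with 30.9 and 25.5 CPM against 56.1 to 125 CPM (-1.65 ± 0.38, limma adjusted p = 0.004). That call was lost without bipolars replicate 2 (limma adjusted p = 0.057). Its P13 call (-1.09 ± 0.38, limma adjusted p = 0.032) was lost without rods replicate 1, cones replicate 1, or bipolars replicate 1 or 2 (limma adjusted p = 0.087 to 0.14) and with plain read totals.

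Ebp, a sterol isomerase, was lower in bipolars at P7 with 32.2 and 32.9 CPM against 85.1 and 80.3 CPM in rods and 64.5 and 80.4 CPM in cones (-1.24 ± 0.33, limma adjusted p = 0.009). It was also lower at P13 (-1.18 ± 0.33, limma adjusted p = 0.0093). The P7 call was lost without bipolars replicate 1 or 2 (limma adjusted p = 0.071 and 0.066). The P13 call was lost without rods replicate 2 (-0.88), without bipolars replicate 2 (limma adjusted p = 0.093) and with plain read totals. Tm7sf2 was called higher at P13 (1.69 ± 0.51, limma adjusted p = 0.016), where bipolars (21.7 and 19.9 CPM) overlapped cones (23.1 and 11.7 CPM). This call was lost without cones replicate 2 or bipolars replicate 1 or 2 (limma adjusted p = 0.051 to 0.096). At P30 limma called 0 of the 17 sterol enzymes, with log2 differences from -0.42 to 0.94. Over all genes 22.6% were higher and 13% lower at that age.

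**Figure D3:**
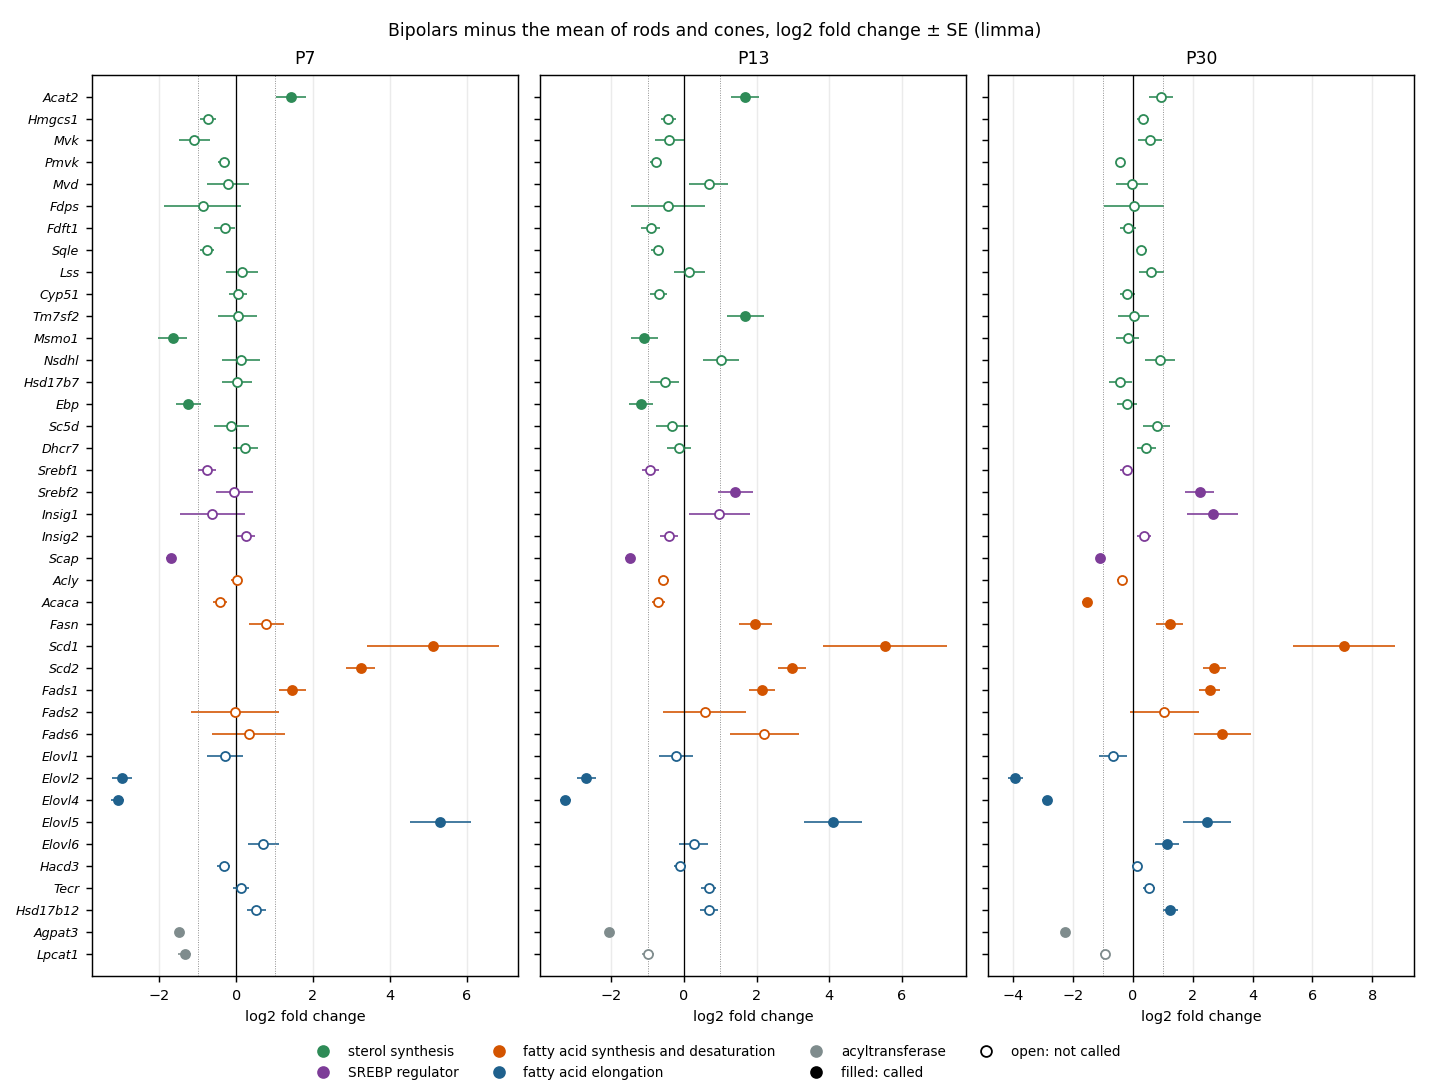
Log2 fold change of each of 40 members, bipolars minus the mean of rods and cones, with SE bars from limma, at P7, P13 and P30; filled points are called, colours give the role and dotted lines mark a log2 fold change of 1 in either direction. Scd2 and Fads1 lie to the right and Elovl2, Elovl4, Agpat3 and Scap to the left at each age.

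**Figure D4:**
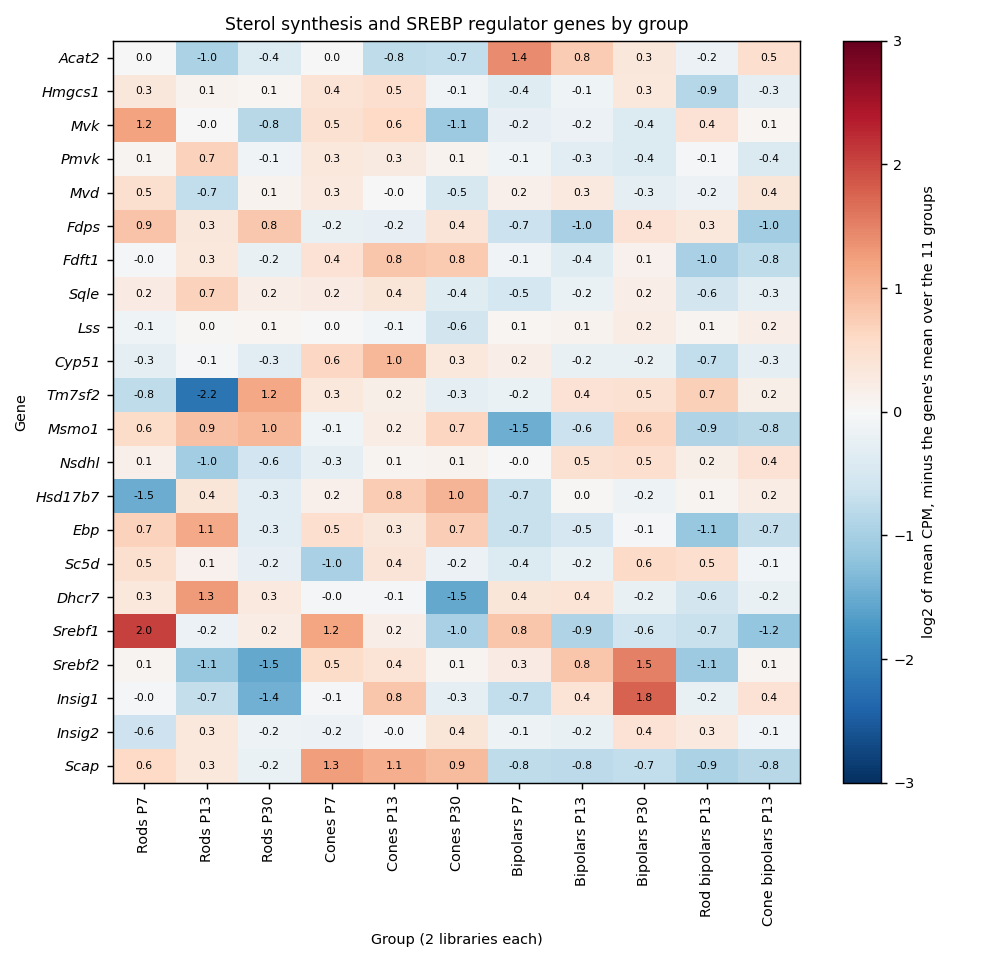
Mean CPM of each sterol enzyme and SREBP regulator in the 11 groups of 2 libraries, on the log2 scale, less the gene's mean over the groups; red is above that mean and blue below. Srebf1 stands highest in rods at P7, Insig1 and Srebf2 in bipolars at P30, and Scap in cones.

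Successive ages were compared within each cell type. The 2 comparisons of a cell type share its P13 libraries. In rods, 2 members rose from P7 to P13 (5% of members, 5.62% of all genes) and 6 fell (15%, against 7.02%). From P13 to P30, 2 rose (5%, against 6.74%) and 1 fell (2.5%, against 5.30%). In cones, 0 members rose (0.216% of all genes) and 0 fell (0.224%) from P7 to P13, and 0 rose (0.850%) and 3 fell (7.5%, against 2.35%) from P13 to P30. At P7 to P13 in cones, 4 members had an unadjusted p under 0.05, and limma with voom weights on the recovered reads called 1. In a fit of the compared groups alone, no step within rods or cones had a called member. That fit called 0 of all 13405 genes at each of these steps, so it could not tell the members from other genes. In bipolars, 0 rose (2.30%) and 1 fell (2.5%, against 0.686%) from P7 to P13, and 0 rose (1.40%) and 1 fell (2.5%, against 0.470%) from P13 to P30.

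Srebf1 (chromosome 11, 60199089 to 60222581, minus strand) was called lower at a later age in each of the 3 cell types. In rods it had 109.9 and 158 CPM at P7, 28.1 and 29.5 CPM at P13 and 34.5 and 41.4 CPM at P30. In bipolars it had 54.4 and 61.9 CPM at P7, 15.1 and 19.5 CPM at P13, and 23.2 and 19.6 CPM at P30. In cones it had 80.6 and 66.9 CPM at P7, 41.6 and 33.5 CPM at P13, and 12.8 and 20.2 CPM at P30. Each P7 library was above each P13 library of its cell type. From P7 to P13 Srebf1 changed by -2.19 ± 0.27 in rods (limma adjusted p = 8.7e-05) and by -1.76 ± 0.27 in bipolars (limma adjusted p = 0.0011), and the bipolar call held under each alternative. In cones the same step was -0.97 ± 0.27 and was not called, and the step from P13 to P30 was -1.22 ± 0.27 (limma adjusted p = 0.022). That cone call was lost without cones P13 replicate 1 (limma adjusted p = 0.11), cones P13 replicate 2 (0.058) or cones P30 replicate 1 (0.14). Whether these steps differ between cell types was not tested.

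In rods 3 genes of fatty acid synthesis and desaturation also fell from P7 to P13. A link to the Srebf1 fall was not tested, and in bipolars Srebf1 was the only member called over that step. Although not called, these 3 genes were also lower in each P13 than in each P7 bipolar library. Scd2 went there from 1084 and 1281 to 448 and 580.5 CPM, and Fasn from 93.3 and 131 to 61.97 and 71.4 CPM. Bipolar Fads1 went from 132 and 139 to 91.8 and 90.2 CPM. In cones Fasn (89.2 and 56.0 to 22.8 and 26.05 CPM) and Scd2 were lower without overlap, uncalled, and Fads1 overlapped. Fads1 in rods went from 45.8 and 36.00 to 5.24 and 12.7 CPM (-2.32 ± 0.41, limma adjusted p = 0.0015). Rod Fasn went from 50.9 and 66.4 to 22.5 and 6.26 CPM (-2.29 ± 0.52, limma adjusted p = 0.0078). Rod Scd2 went from 139 and 79.2 to 74.8 and 18.7 CPM (-1.49 ± 0.44, limma adjusted p = 0.032). The Fasn call was lost without rods P7 replicate 2 (limma adjusted p = 0.063) or rods P13 replicate 2 (-1.37, limma adjusted p = 0.079). The Scd2 call was lost without rods P7 replicate 1 (limma adjusted p = 0.2) or rods P13 replicate 2 (-0.49, limma adjusted p = 0.35). In cones Fads1 fell from P13 to P30, from 71.6 and 37.5 to 8.37 and 16.01 CPM (-2.16 ± 0.41, limma adjusted p = 0.0098), and lost its call without cones P13 replicate 1 (limma adjusted p = 0.072) or cones P30 replicate 1 (limma adjusted p = 0.07).

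Elovl2 fell in rods from P7 to P13 (-1.28 ± 0.29, limma adjusted p = 0.0085), with the levels given above. That call was lost without rods P7 replicate 2 (limma adjusted p = 0.056) or rods P13 replicate 2 (limma adjusted p = 0.071). Elovl2 also fell in bipolars from P13 to P30 (-1.53 ± 0.29, limma adjusted p = 0.012). This was lost without bipolars P13 replicate 2 (limma adjusted p = 0.23), bipolars P30 replicate 1 (0.053) or bipolars P30 replicate 2 (0.1). Elovl6 rose in rods from P7 to P13 (2.08 ± 0.47, limma adjusted p = 0.0072) and stayed low at both ages. Without rods P7 replicate 1 its step was 1.12 (limma adjusted p = 0.07). Elovl5 in rods went from 3 reads at P13 to 156 reads at P30, a ratio of 36.2 (95% counting interval 12.2 to 177), with a limma adjusted p of 0.00078 (0.082 with voom weights).

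Sterol enzymes changed singly. Tm7sf2 in rods had 10.2 and 8.11 CPM at P7, 1.12 and 5.71 CPM at P13 and 34.2 and 34.7 CPM at P30. Its rise from P13 to P30 was 3.76 ± 0.59 (limma adjusted p = 0.00072). The fall before it (-1.84 ± 0.59, limma adjusted p = 0.045) was lost without rods P7 replicate 1 (limma adjusted p = 0.15), rods P7 replicate 2 (0.12) or rods P13 replicate 1 (0.37). Hsd17b7 rose in rods from P7 to P13, from 7.58 and 4.58 to 23.8 and 20.3 CPM (1.90 ± 0.46, limma adjusted p = 0.012), and lost its call without rods P7 replicate 2 (limma adjusted p = 0.1). Ebp fell in rods from P13 to P30, from 69.3 and 158 to 34.9 and 47.3 CPM (-1.36 ± 0.38, limma adjusted p = 0.024), and lost its call without rods P13 replicate 2 (limma adjusted p = 0.24) or rods P30 replicate 1 (limma adjusted p = 0.17). Dhcr7 fell in cones from P13 to P30, from 36.5 and 49.6 to 10.3 and 20.3 CPM (-1.55 ± 0.37, limma adjusted p = 0.033). It lost its call without cones P13 replicate 1 (limma adjusted p = 0.056), cones P13 replicate 2 (0.2) or cones P30 replicate 1 (0.21). Cones at P30 held the largest share of mitochondrially encoded reads, and Müller glia markers in cones went from 339.6 and 265 CPM at P13 to 808 and 891 CPM at P30. The part of either in the cone calls was not tested.

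**Figure D5:**
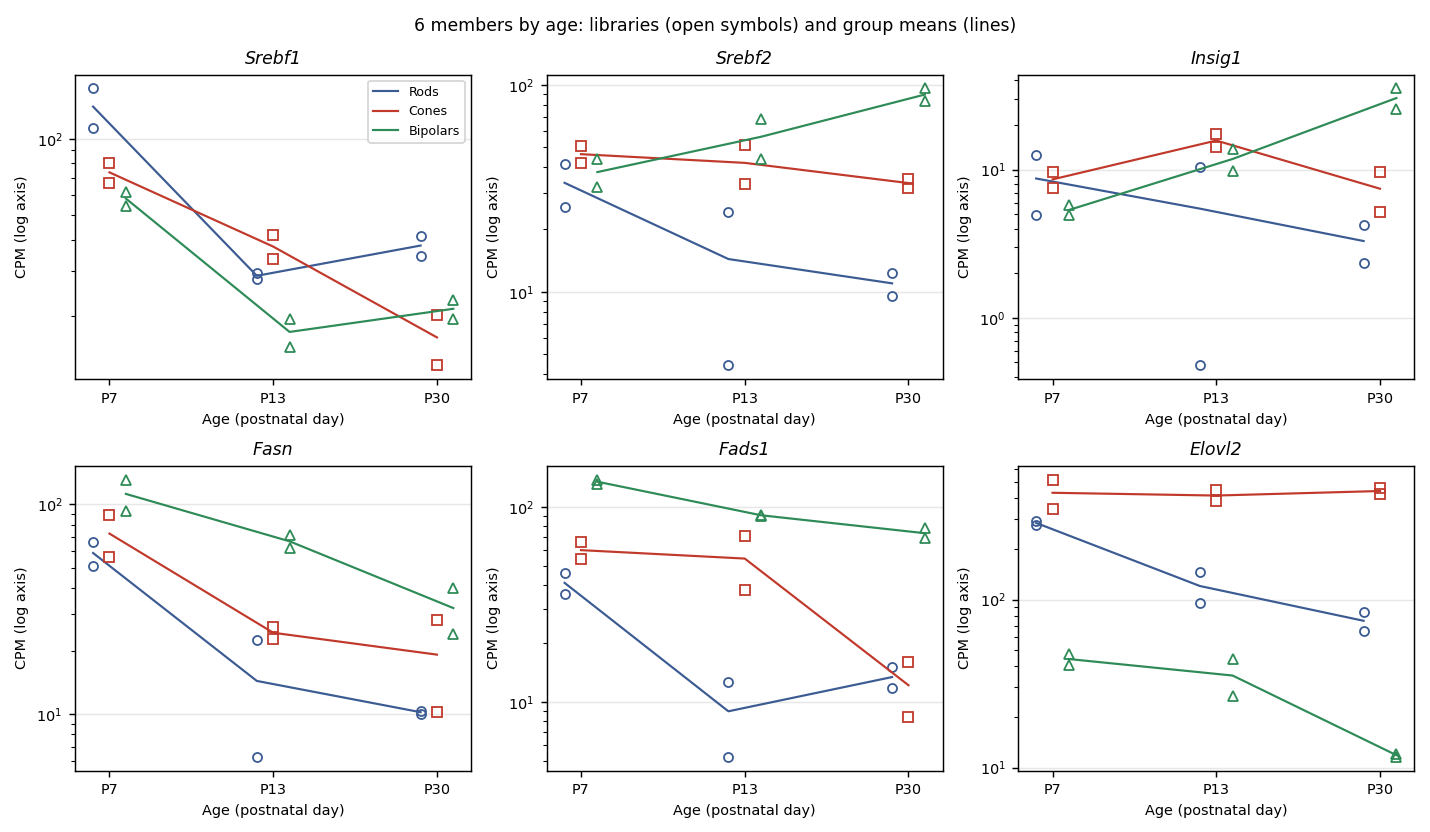
Levels of 6 members in CPM on log axes at P7, P13 and P30, spaced evenly, with 1 open symbol per library and lines through the group means for rods, cones and bipolars. Srebf1 lies lower at P13 and P30 than at P7 in rods, cones and bipolars, and its P7 to P13 step was not called in cones. Elovl2 falls in rods and bipolars and was called at no step in cones. The low Srebf2 and Insig1 values at P13 in rods are replicate 2.

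The change from P7 to P30 was compared between cell types by interaction. Between rods and cones, 1 member had a higher change in rods (2.5% of members, 6.04% of all genes) and 1 a lower one (2.5%, against 4.57%). With plain read totals the split was 4 and 1, and 2105 of 2337 calls over all genes were higher, against 809 of 1422 as deposited. The pair were Elovl5, whose rod reads rose from 1 to 156 while cones went from 241 and 285 to 205 and 164 CPM, and Elovl2, given above. With plain read totals the split between bipolars and the photoreceptor mean was 6 and 0, and 1309 of 1636 calls over all genes were higher, against 920 of 1492 as deposited. As deposited, 3 members had a higher change in bipolars (7.5%, against 6.86%) and 1 a lower one (2.5%, against 4.27%). The 3 were Srebf2 (2.28 ± 0.68, limma adjusted p = 0.038), Hmgcs1 (1.08 ± 0.30, limma adjusted p = 0.027) and Sqle (1.04 ± 0.25, limma adjusted p = 0.013), and the lower one was Acaca (-1.12 ± 0.25, limma adjusted p = 0.0089). In bipolars Srebf2 went from 43.9 and 31.9 to 96.3 and 83.5 CPM, Hmgcs1 from 67.9 and 69.6 to 108 and 112 CPM, and Sqle from 35.04 and 38.3 to 64.1 and 56.3 CPM. Acaca went from 58.3 and 56.2 to 28.97 and 23.98 CPM. Without bipolars P7 replicate 1 none of these 4 was called (limma adjusted p = 0.086, 0.1, 0.076 and 0.052). The Müller glia markers were higher in the P30 than in the P7 bipolar libraries, and their part in these interactions was not tested.

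Rod bipolars and cone bipolars were compared at P13. Of the 40 members, 0 were higher in rod bipolars (1.51% of all genes) and 1 was lower (2.5%, against 3.17%). That gene was Lpcat1 (chromosome 13, 73467197 to 73516422, plus strand), with 30.2 and 31.7 CPM in rod bipolars and 132 and 135 CPM in cone bipolars. The difference was -2.11 ± 0.20 (limma adjusted p = 7.1e-06) and was called under each of 10 alternatives. The P13 bipolars held 111 and 117 CPM. The members' median was -0.30, beside -0.06 over all genes, and 7 members had an unadjusted p under 0.05. Elovl4 had 152 and 147 CPM in rod bipolars and 127 and 109 CPM in cone bipolars, and Elovl5 had 45.9 and 22.9 CPM and 37.2 and 33.4 CPM, with no call for either. The part of rod RNA in these Elovl4 levels was not tested.

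Genes of neighbouring pathways, from lists kept apart from the members, were read in the same fit. In rods against cones at P13, 6 of 16 tested other fatty acid synthesis genes were called, 2 higher and 4 lower, and 5 of 16 fatty acid oxidation genes, 3 higher and 2 lower. For sterol export, transport and turnover it was 4 of 16, 3 higher and 1 lower, for glycerophospholipid assembly 2 of 20, both lower, and for the other isoprenoid branches 2 of 10, both lower. Over all genes 7.10% were higher and 14.1% lower. Elovl7, an elongase outside the member list, had 62.8 and 63.5 CPM at P7, 84.4 and 101 CPM at P13, and 117 and 131 CPM at P30 in cones. Rods had 0 and 0.0219 CPM at P7, 4.25 and 0.402 CPM at P13, and 0.0453 and 0.130 CPM at P30, below every cone library. In reads, cones exceeded rods 6026-fold at P7 (95% counting interval 1081 to 238053, on 1 rod read), 45.9-fold at P13 (38.8 to 54.8) and 1359-fold at P30 (716 to 2973). Acsl3, an acyl-CoA synthetase, was lower in rods at all 3 ages (-1.81 ± 0.24, -2.51 ± 0.24 and -2.19 ± 0.24, limma adjusted p = 0.0001, 2.8e-06 and 1e-05), with 70.2 and 74.7 CPM against 339 and 321 CPM at P30. Acsl4, another acyl-CoA synthetase, was higher in rods at P13, with 43.4 and 64.8 CPM against 11.4 and 8.51 CPM (2.43 ± 0.45, limma adjusted p = 0.0011). Slc25a1, the mitochondrial citrate carrier, had 0 and 0 CPM in rods and 0.278 and 1.45 CPM in cones at P13 (limma adjusted p = 0.0081). Cpt1c had 0 and 0.226 CPM in rods and 2.62 and 5.07 CPM in cones (limma adjusted p = 0.001). Both genes were near the floor in rods, and Slc25a1 was sparse in cones too. Their fitted folds and p-values depend on the floor of the log scale.

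In bipolars against photoreceptors at P13, 6 of 16 other fatty acid synthesis genes were called, 2 higher and 4 lower, and 8 of 16 oxidation genes, 1 higher and 7 lower. For glycerophospholipid assembly it was 8 of 20, 4 higher and 4 lower, for sterol export, transport and turnover 7 of 16, 2 higher and 5 lower, and for the other isoprenoid branches 0 of 10. Over all genes 20.6% were higher and 12.8% lower. Me1, the malic enzyme that supplies NADPH for fatty acid synthesis, had 30.9 and 37.7 CPM in bipolars, 237 and 231 CPM in rods and 545 and 465 CPM in cones at P13 (-3.33 ± 0.18, limma adjusted p = 1.3e-09). Acsl1, an acyl-CoA synthetase, had 32.5 and 31.2 CPM in bipolars, 331 and 438 CPM in rods and 291 and 347 CPM in cones (-3.45 ± 0.21, limma adjusted p = 5.3e-09). Cpt1a, the gate of mitochondrial fatty acid oxidation, had 15.9 and 12.5 CPM in bipolars, 368 and 299 CPM in rods and 168 and 179.7 CPM in cones (-4.09 ± 0.30, limma adjusted p = 4.5e-08). For these 3 genes every bipolar library lay below every photoreceptor library at P13. Cpt1c, a brain-enriched paralog of Cpt1a, went the other way, with 71.7 and 52.9 CPM in bipolars, 0 and 0.226 CPM in rods and 2.62 and 5.07 CPM in cones (limma adjusted p = 4.7e-05). Agpat4, an acyltransferase related to Agpat3, had 28.1 and 30.9 CPM in bipolars, 0.0351 and 0 CPM in rods and 0.0232 and 1.86 CPM in cones (limma adjusted p = 0.00031). Both were above every photoreceptor library at P13, and their fitted folds depend on the floor.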

How the data were processed

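RNA from sorted mouse retinal cells was amplified in a linear fashion before library preparation, per the labels' protocols. The submitters' processing notes name STAR, edgeR and the build GRCm38; the counter, annotation and gene filter are, in the sources used here, not given. The kit marks no strand, so reads of overlapping genes cannot be told apart. Values in the table the authors deposited are log2 CPM, and 100% of them came back to whole reads within 0.01 once the floor of -7.10 was removed. Those reads gave depths (14.4 to 54.4 Mreads), ratios, exact 95% counting intervals and the floor of 3 reads. Effective library sizes were 0.608 to 1.23 times the totals.

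GENCODE M21 gave symbols and positions for 13785 IDs; the 27 others (0.109% of reads) were left out. limma 3.58.1 in R 4.3.3 was fitted to the deposited log2 values with a trend, a coefficient per group and 11 residual degrees of freedom, over 13405 genes. These reached a log2 CPM of 0 in each library of some group, and 380 did not. No count model was used, since the deposited unit is log2. The code was tested on simulated data. Fitted fold changes of genes with few reads depend on the floor.

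The members and lists were chosen with earlier results of these data known. Every member could be named; values are given for called members and for a few others by role, and other genes are examples from the up to 4 called genes per list with the largest differences and no overlap, picked among these after their values were seen. Alternatives were log2(CPM + 1), no filter, plain read totals, the compared groups alone, a replicate block, leaving out each library and, added after seeing the data, voom weights. Promoter windows came from RefSeq (GRCm38.p6). Over 55 pairs of groups, deviations of same-numbered libraries correlated at -0.13 to 0.23 (median 0.0076), with 4 pairs above 0.1. These values cannot settle whether the replicate numbers pair the libraries, and the labels do not say.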

Additional observations from a re-analysis of the deposited data

Results flagged for a closer look

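The change from P7 to P30 differed between cell types for 6 members by the limma interaction. Between rods and cones the interaction was 7.22 for Elovl5 and -2.01 for Elovl2 on the log2 scale. The Elovl5 value depends on the floor, since rods held 1 read at P7, and rod levels rose from 0 and 0.0219 to 1.18 and 1.93 CPM while cones held 241 and 285 and then 205 and 164 CPM. Elovl2 went from 277 and 294 to 65.4 and 84.1 CPM in rods and from 347 and 517 to 424 and 460.1 CPM in cones. Both were called in each of 14 alternatives.

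Between bipolars and the mean of rods and cones the interaction was 2.28 for Srebf2, 1.08 for Hmgcs1, 1.04 for Sqle and -1.12 for Acaca. Of 18 alternatives, Srebf2 was called in 9, Hmgcs1 in 12, Sqle in 14 and Acaca in 15. Leaving out either bipolar library of P7 or P30 gave a limma adjusted p for Srebf2 of 0.086, 0.16, 0.11 and 0.11, in the order P7 replicate 1 and 2 and P30 replicate 1 and 2. It was also lost without rods P7 replicate 1, rods P30 replicate 2, cones P7 replicate 1 or 2, or cones P30 replicate 1 (limma adjusted p = 0.051 to 0.073). Hmgcs1 was lost without any 1 of those 4 bipolar libraries, rods P30 replicate 1 or cones P7 replicate 2 (limma adjusted p = 0.051 to 0.11). Sqle was lost without rods P30 replicate 1 (1.00), cones P7 replicate 2 (0.97), bipolars P7 replicate 1 (0.98) or bipolars P30 replicate 1 (0.95). Acaca was lost without bipolars P7 replicate 1 (-1.09, limma adjusted p = 0.052), without bipolars P30 replicate 2 (-0.98) and with plain read totals. The 10 Müller glia markers summed to 237 and 219 CPM in bipolars at P7 and 4974 and 7822 CPM at P30, and their part in these interactions was not tested.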

How the results depend on the processing

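Of 97 member calls, 35 were made in every alternative run for their comparison, and no called value changed sign. A fit of the compared groups alone takes the spread from fewer libraries and from those groups only. Members called were 1 for rods against cones at P13 (14 with all libraries) and 6 at P30 (11). They were 7 for bipolars against photoreceptors at P13 (14). Within rods they were 0 from P7 to P13 (8) and 0 from P13 to P30 (3), within cones 0 from P13 to P30 (3), within bipolars 3 from P7 to P13 (1), and 7 for the bipolar interaction (4). Over all genes that fit called 0 at each rod and cone step, so no call of those steps could be among the 35. For rods against cones at P13 it called 491 of all genes (2843 with all libraries), and for bipolars from P7 to P13 it called 1559 (400). Plain read totals moved the median of all genes by up to 0.65 (the interaction of rods and cones), and by 0.60 for rods against cones at P30. They gave 1 member for cones from P7 to P13 (0), 7 for cones from P13 to P30 (3) and 5 for the interaction of rods and cones (2). Over all genes they gave 110 (59), 972 (429) and 2337 (1422). Voom weights gave 1 for cones from P7 to P13, 1 for cones from P13 to P30, 2 for bipolars from P7 to P13 (1) and 0 for bipolars from P13 to P30 (1). The 7 calls lost with voom weights were Fads6 (rods against cones at P13), Elovl6 and Tm7sf2 (rods, P7 to P13), Elovl5 (rods, P13 to P30), Srebf1 and Dhcr7 (cones, P13 to P30) and Elovl2 (bipolars, P13 to P30). On log2(CPM + 1), 2 were called for each bipolar step and 9 for the bipolar interaction. The cause of these moves was not tested. Leaving out 1 library gave 5 to 9, 9 to 16 and 9 to 12 members for rods against cones at P7, P13 and P30, and 7 to 12, 11 to 18 and 10 to 16 for bipolars against photoreceptors. It gave 4 to 12 and 2 to 10 for the rod steps, 0 to 0 and 0 to 5 for the cone steps, 1 to 1 and 0 to 1 for the bipolar steps, 1 to 2 for the bipolar subtypes, and 2 to 7 and 0 to 4 for the interactions. Where a library of a pair is left out, the other is assumed to vary like the other groups.

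Whether the replicate numbers pair the libraries is not in the labels. With the replicate block, members called were 8, 13 and 11 for rods against cones, 12, 14 and 15 for bipolars against photoreceptors, 9 and 3 for the rod steps, 0 and 3 for the cone steps, 1 and 1 for the bipolar steps, 1 for the bipolar subtypes, and 2 and 4 for the interactions. Of the 97 calls, Fads6 in rods against cones at P13 was lost under the block. The planned edgeR test was not run, since the deposited unit is log2. Depth limits the sparse members Scd1, Fads2, Fads6 and, in rods, Elovl5.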
